A study of Mus musculus with 12 samples.

Results

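Ligand-bound steroid receptors regulate transcription through coregulator proteins, and 9 genes for such proteins were followed here in hypothalamic neurospheres treated with a glucocorticoid. The genes were Ncoa1, Ncoa2, Ncoa3, Ncor1, Crebbp, Ep300, Med1, Smarca4 and Carm1. They were taken by name from a table of 40597 loci, where 7 had a locus of their own. Ep300 was joined with Gm23880 and Smarca4 with uc_338, so the values of these 2 loci may include their partners. The 9 genes lie on chromosomes 12 (Ncoa1), 1 (Ncoa2), 2 (Ncoa3), 11 (Ncor1 and Med1), 16 (Crebbp), 15 (Ep300) and 9 (Smarca4 and Carm1), and all are annotated as protein-coding. All 9 passed a filter on low values (a mean of at least 1 FPKM) that left 14931 loci.

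The cultures were grown from the hypothalamus of C57Bl/6 fetuses at embryonic day 14.5 as neurospheres, floating clusters of neural stem and progenitor cells. At passage 3, 4 groups of 3 libraries each were set up: male cultures given 100 nM dexamethasone, a synthetic glucocorticoid, male cultures given ethanol vehicle, and female cultures given either. Exposure lasted 4 hours, and total RNA was sequenced from 12 libraries. Pooling of fetuses and sharing of a culture by same-numbered libraries were not given in the sources used here. The labels number the 3 libraries of a group as biological replicates without saying what separates them, so p-values measure the spread between these libraries. In bulk RNA, fewer cells of a type and less RNA per cell cannot be told apart.

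A hormone-bound receptor uses a short groove on its ligand-binding domain to recruit p160 coactivators, the products of Ncoa1, Ncoa2 and Ncoa3. These proteins bring in the acetyltransferases encoded by Crebbp and Ep300 and the arginine methyltransferase encoded by Carm1. Med1 is the Mediator subunit through which nuclear receptors contact the RNA polymerase II machinery, and Smarca4 (BRG1) is an ATPase of SWI/SNF chromatin remodelling complexes. Ncor1 encodes a corepressor that carries histone deacetylase 3 to repressed genes. In mouse liver and macrophages, the Ncoa2 product (GRIP1) also takes part in glucocorticoid repression.

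Promoter windows of 250 bases before the annotated start, from RefSeq on GRCm38.p6, were present for 6 of the 9 genes (7 windows). None was in the table for Ncoa2, Ncoa3 and Carm1. The windows of Ncoa1 and Smarca4 are shown because they lie wholly outside the annotated gene, beside that of Klf9, a gene that rose with dexamethasone. The Ncoa1 window is chr12:4477183-4477432 on the minus strand, the Smarca4 window is chr9:21615919-21616168 on the plus strand and the Klf9 window is chr19:23140976-23141225 on the plus strand. Capitals mark the GC box GGGCGG, a Sp1-type element, and the glucocorticoid half-site AGAACA, each searched on both strands.
Ncoa1: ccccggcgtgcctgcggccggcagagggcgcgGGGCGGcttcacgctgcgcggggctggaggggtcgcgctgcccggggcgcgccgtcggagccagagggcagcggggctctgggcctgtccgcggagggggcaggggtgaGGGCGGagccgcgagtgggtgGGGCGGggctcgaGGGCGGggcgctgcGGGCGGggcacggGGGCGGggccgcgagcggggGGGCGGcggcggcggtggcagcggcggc
Smarca4: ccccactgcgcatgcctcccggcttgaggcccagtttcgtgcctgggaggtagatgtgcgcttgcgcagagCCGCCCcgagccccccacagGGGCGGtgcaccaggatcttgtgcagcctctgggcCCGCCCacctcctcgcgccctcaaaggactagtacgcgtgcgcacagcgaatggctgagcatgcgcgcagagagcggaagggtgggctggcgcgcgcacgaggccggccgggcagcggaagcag
Klf9: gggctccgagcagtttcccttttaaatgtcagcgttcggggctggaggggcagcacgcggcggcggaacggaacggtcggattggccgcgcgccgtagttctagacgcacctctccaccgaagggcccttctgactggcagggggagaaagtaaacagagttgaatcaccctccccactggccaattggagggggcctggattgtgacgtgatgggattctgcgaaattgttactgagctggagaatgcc
The GC box was found in 6 of 7 windows of the coregulators, against 32.7% of all 32851 windows in the table, and in 5 of 7 windows of the genes Fkbp5, Tsc22d3, Klf9 and Per1, which rose. Ncoa1 held 7 copies and Smarca4 held 3, while the Klf9 window held none. The half-site AGAACA was found in 1 of 7 coregulator windows, the one of the 2 Ncor1 windows that lies farther into the annotated gene, against 16.1% of all windows. Among the windows of the 4 genes that rose it was also in 1 of 7, a Tsc22d3 window. The full palindrome, AGAACA and TGTTCT with 3 free bases between them, contains the half-site and was in none of the coregulator windows and in 0.00913% of all windows. These are letter matches in a short window and say nothing about the receptor elsewhere.

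The labelled cell type was checked against its markers. All 7 neural stem markers reached 1 FPKM, led by the radial glial gene Fabp7 at 3503 FPKM, and none of 6 microglial, 5 endothelial or 4 erythroid markers did. Genes of other neural lineages were present too: all 5 astrocytic and all 6 oligodendrocyte-lineage markers reached 1 FPKM (Olig1 at 211 FPKM), as did 3 of 6 neuronal markers (Map2 at 274 FPKM) and 1 of 6 mural and fibroblast markers (Acta2 at 27.9 FPKM). The other neuronal markers were far lower than Map2. Group means ran from 4.30 to 5.35 FPKM for Tubb3 and from 1.93 to 3.16 FPKM for Snap25, and Dcx, Rbfox3 and Stmn2 did not reach a mean of 1 FPKM over all libraries. Of these markers Cspg4, a gene of oligodendrocyte progenitors and pericytes, was called (log2 fold change 0.76, adjusted p = 0.0114), averaging 21.4 ± 5.08 FPKM in male dexamethasone and 12.6 ± 1.54 FPKM in male vehicle libraries, and 21.9 ± 1.08 FPKM in female dexamethasone and 12.0 ± 1.57 FPKM in female vehicle libraries (SD, n = 3). The neural stem marker Sox2 was not called (limma, log2 fold change -0.42, adjusted p = 0.0915). Its dexamethasone libraries reached at most 91.8 FPKM in males and 96.8 FPKM in females. Its vehicle libraries held at least 103.5 FPKM in males and 112.4 FPKM in females. Over both sexes all its dexamethasone libraries thus lay below its vehicle libraries, as for 0.804% of tested loci. The other neural stem markers were not called either. Their log2 fold changes were -0.41 (Hes5), -0.29 (Nes), -0.14 (Vim), -0.02 (Pax6), 0.02 (Fabp7) and 0.04 (Slc1a3). The summed FPKM of the 7 neural stem markers overlapped, at 5770 to 7495 in dexamethasone and 6028 to 7403 in vehicle libraries. The summed FPKM of the 6 oligodendrocyte-lineage markers ran from 328 to 427 in dexamethasone and from 335 to 413 in vehicle libraries. That of the 5 astrocytic markers was far more spread, from 37.1 to 205 in dexamethasone and from 35.2 to 156 in vehicle libraries. Gfap alone ran from 1.15 to 78.0 FPKM among the male dexamethasone libraries. The part of these sums in the values of the coregulators was not tested. Unnamed loci made up 53.1% of summed FPKM in male dexamethasone library 2 and 75.0% in male vehicle library 3, and 11.6% to 38.6% in the other libraries. Turned directions of the averaged coregulator estimates, and several counts of called loci, are also given without these 2 libraries. FPKM carry no counts, so the depth behind each value is unknown.

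All 9 genes were expressed in every library, over a wide span of levels. FPKM is scaled by transcript length, which allows levels to be set side by side between genes. Ncor1 was the most abundant, at 88.9 ± 10.5 FPKM (SD, n = 12 libraries), above 92.2% of the 10637 tested protein-coding loci. Smarca4 followed at 45.2 ± 5.39 FPKM, Med1 at 29.3 ± 4.74 and Carm1 at 25.3 ± 4.13 FPKM. Ncoa2 stood at 14.0 ± 3.39 and Ncoa1 at 11.5 ± 1.97 FPKM, close to the median protein-coding locus at 13.6 FPKM. The lowest levels were those of Crebbp (7.40 ± 2.00 FPKM), Ncoa3 (7.28 ± 0.918 FPKM) and Ep300 (6.01 ± 1.20 FPKM).

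Part of that order held in every library. Ncor1 exceeded Smarca4, Smarca4 exceeded Med1, and Carm1 exceeded Ncoa2 in 12 of 12 libraries, with ranges that did not overlap. Other neighbours overlapped: Med1 was above Carm1 in 9 libraries, Ncoa2 above Ncoa1 in 9, Ncoa1 above Crebbp in 11, Crebbp above Ncoa3 in 6 and Ncoa3 above Ep300 in 10. The corepressor Ncor1 was thus listed at several times the level of each p160 coactivator, and Ncoa3 was the lowest of the p160 genes by its mean. The quantified loci of Ncor1 and Ncoa3 reach beyond the annotated genes, so their levels may include neighbouring genes.

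**Figure D1:**
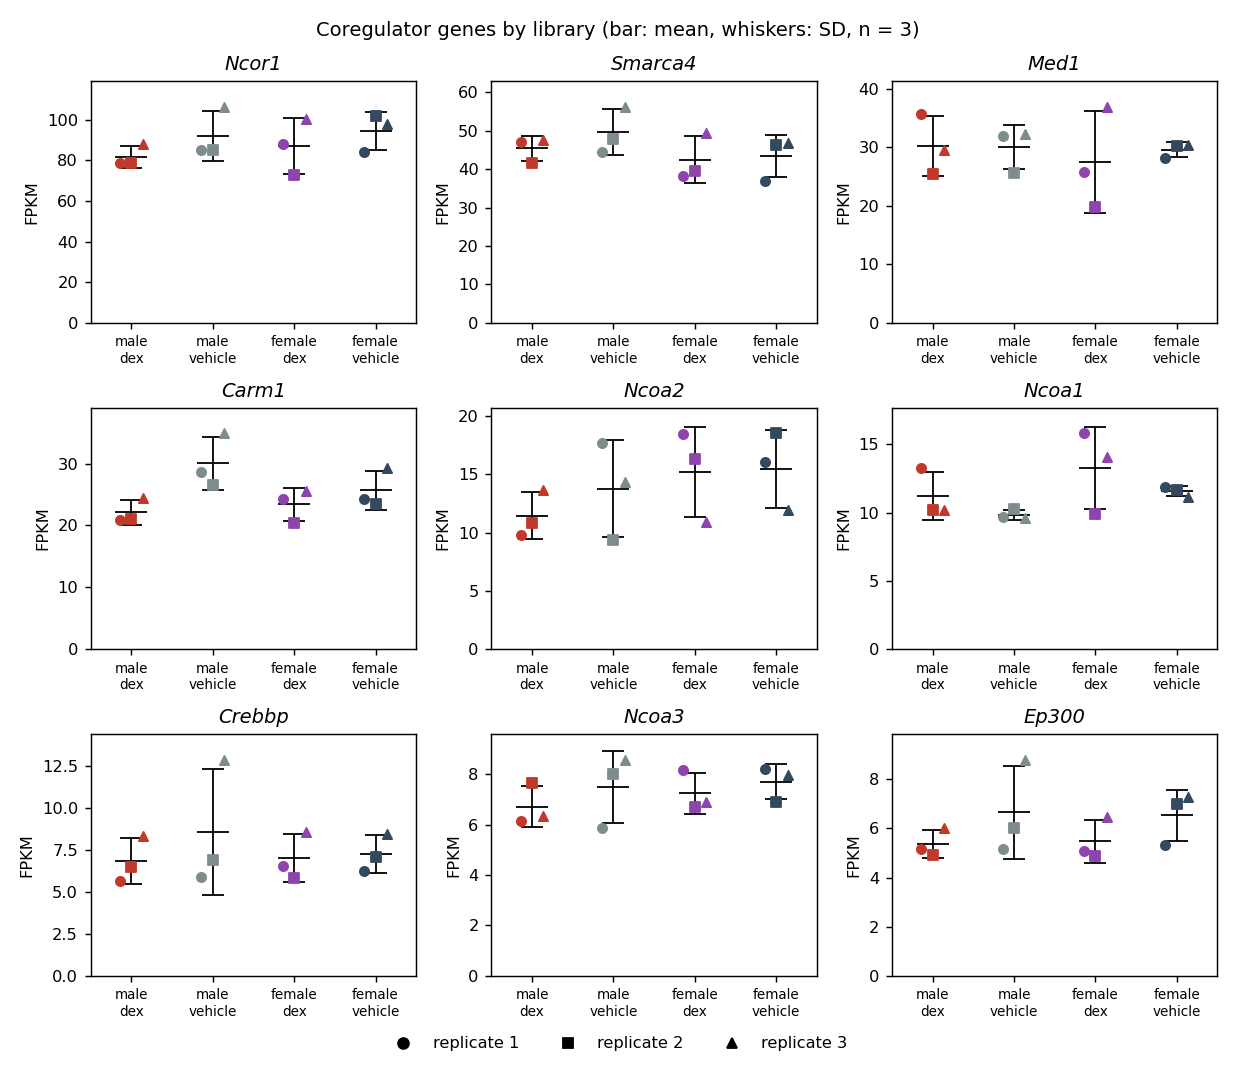
FPKM (y axis, from 0) of each coregulator gene in the 12 libraries by group, in order of mean level. Points are libraries, with symbols for the replicate number, bars are means and whiskers SD (n = 3). The 4 groups overlap for most genes. In Carm1 the male dexamethasone libraries (20.9 to 24.5 FPKM) all lie below the male vehicle libraries (26.5 to 34.9 FPKM).

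The main comparison asked whether 4 hours of dexamethasone changed the RNA of the coregulators. In the model without a replicate term, none of the 9 was called in the effect averaged over the sexes (limma, adjusted p from 0.245 to 0.862), where 1.53% of all tested loci were called. Only Carm1 had an unadjusted p under 0.05, against 13.6% of all tested loci. The same model called Fkbp5, a co-chaperone of the receptor, at a log2 fold change of 2.42 (SE 0.14), Klf9 at 2.00 (SE 0.07), Tsc22d3 at 2.43 (SE 0.23) and Per1 at 1.91 (SE 0.16). Each fold change is a difference in log2(FPKM + 1) and so is too small for genes of low level. On that scale the 95% intervals of the 9 coregulators ran from -0.54 to 0.40, a ratio of 0.686 to 1.32. With the replicate number within each sex as a block, Carm1 alone of the 9 was called (limma, adjusted p = 0.033), where 5.38% of loci were called.

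**Figure D2:**
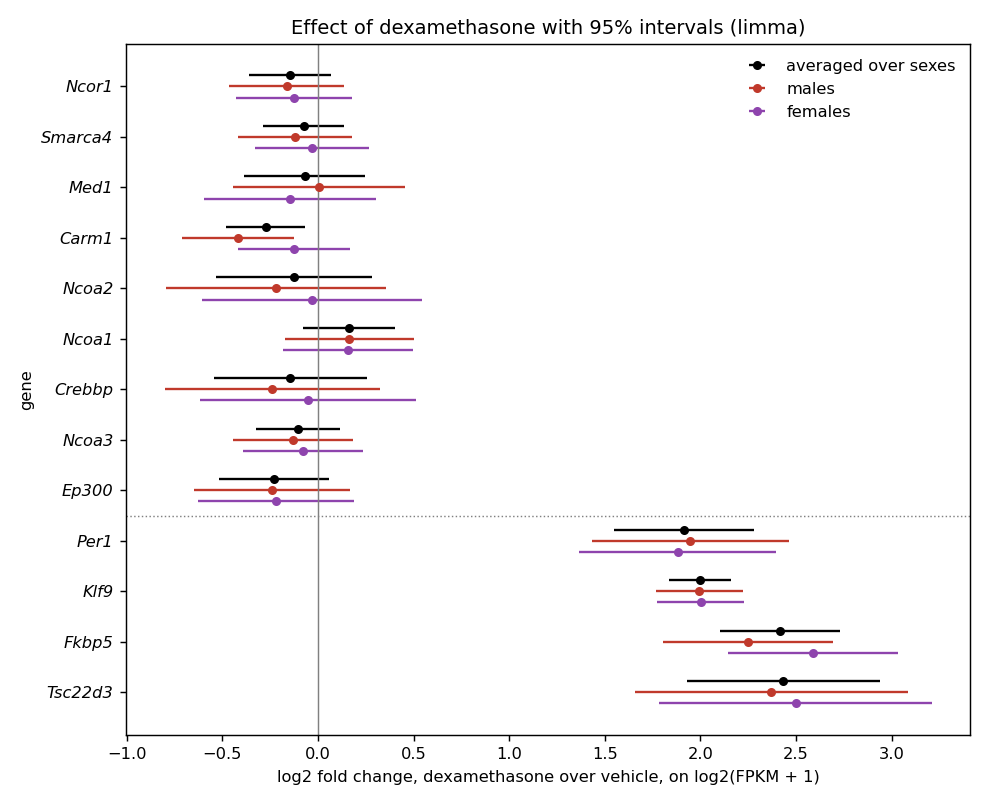
Log2 fold change of dexamethasone over vehicle on the log2(FPKM + 1) scale (x axis) for the 9 coregulator genes and, below the dotted line, 4 genes that rose. Points are limma estimates without a replicate term and lines 95% intervals, averaged over the sexes (black), in males (red) and in females (purple). The averaged intervals of 8 coregulators cross 0 and that of Carm1 runs from -0.48 to -0.07, with an adjusted p of 0.245.

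The estimate was below 0 for 8 of the 9 genes, Ncoa1 being the exception, with a median of -0.13 against -0.01 over all tested loci, of which 51.5% were below 0. This count was the same under both other scalings between libraries tried. It was 7 of 9 without male vehicle library 3 or without female dexamethasone library 2. Without the 2 libraries rich in unnamed loci it was 5 of 9, as Crebbp, Med1 and Smarca4 then lay above 0 (0.02, 0.01 and 8e-04), and the median was -0.08.

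Among the p160 coactivators, Ncoa1 encodes SRC-1, the founding member of the family. It had 13.2, 10.2 and 10.2 FPKM in male dexamethasone libraries 1 to 3, against 9.66, 10.2 and 9.60 FPKM in male vehicle libraries. In females it had 15.8, 9.91 and 14.1 FPKM with dexamethasone, against 11.9, 11.7 and 11.2 FPKM with vehicle. Both comparisons overlapped, and the dexamethasone groups were the more spread, with an SD of 1.75 against 0.351 FPKM in males and 3.02 against 0.373 FPKM in females. The log2 fold change was 0.16 (SE 0.11, adjusted p = 0.541), and it was 0.10 without female dexamethasone library 1 and 0.25 without female dexamethasone library 2. Its GC-rich promoter window is printed above.

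Ncoa2 encodes GRIP1, also called TIF2. Male dexamethasone libraries held 9.80, 10.8 and 13.7 FPKM, against 17.6, 9.33 and 14.4 FPKM in male vehicle libraries. Female dexamethasone libraries held 18.4, 16.3 and 10.9 FPKM, against 16.0, 18.5 and 11.9 FPKM in female vehicle libraries. Libraries of 1 group differed widely, and within each sex the dexamethasone and vehicle libraries overlapped. The interval of its log2 fold change, -0.53 to 0.28 around -0.13 (adjusted p = 0.793), was among the widest of the 9. Leaving out 1 library gave -0.24 (without male vehicle library 2) to -0.02 (without female dexamethasone library 3).

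Ncoa3 encodes SRC-3, the third p160 protein. Its values were 6.14, 7.64 and 6.33 FPKM in male dexamethasone libraries, against 5.88, 8.01 and 8.57 FPKM in male vehicle libraries. In females they were 8.18, 6.68 and 6.88 FPKM with dexamethasone, against 8.22, 6.92 and 7.96 FPKM with vehicle. These ranges overlapped in both sexes (log2 fold change -0.10, SE 0.10, adjusted p = 0.663). As a share of the summed FPKM of the p160 genes, Ncoa1 averaged 38.2% ± 6.24 in male dexamethasone and 31.9% ± 4.51 in male vehicle libraries, and 37.2% ± 6.995 in female dexamethasone and 33.5% ± 2.31 in female vehicle libraries (SD, n = 3). The share was given no test and its ranges overlapped within each sex.

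Crebbp and Ep300 encode CBP and p300, closely related acetyltransferases that p160 proteins recruit. Crebbp had 5.64, 6.45 and 8.31 FPKM in male dexamethasone libraries, against 5.90, 6.91 and 12.8 FPKM in male vehicle libraries. In females it had 6.54, 5.84 and 8.58 FPKM with dexamethasone, against 6.23, 7.08 and 8.43 FPKM with vehicle. Apart from male vehicle library 3, all libraries lay between 5.64 and 8.58 FPKM. The log2 fold change of -0.15 (SE 0.18, adjusted p = 0.753) was 0.01 without that library.

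Ep300 had 5.16, 4.93 and 6.03 FPKM in male dexamethasone libraries, against 5.15, 6.02 and 8.80 FPKM in male vehicle libraries. In females it had 5.08, 4.87 and 6.46 FPKM with dexamethasone, against 5.34, 7.01 and 7.27 FPKM with vehicle. The highest value was again that of male vehicle library 3, and the groups overlapped in both sexes. The log2 fold change, -0.23 (SE 0.13, adjusted p = 0.463), was the lowest of the 9 after that of Carm1. Without male vehicle library 3 it was -0.13 (adjusted p = 0.706).

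Carm1 encodes the methyltransferase that acts on histone H3 and on CBP and p300 at receptor-bound genes. Its libraries held 20.9, 21.0 and 24.5 FPKM in male dexamethasone cultures, against 28.7, 26.5 and 34.9 FPKM in male vehicle cultures. Female dexamethasone cultures held 24.2, 20.4 and 25.6 FPKM, against 24.3, 23.5 and 29.2 FPKM in female vehicle cultures. In males the groups did not overlap, which among all tested loci was so in this direction for 6.15%. In females they overlapped. No other coregulator had all dexamethasone libraries below or above the vehicle libraries, against 5.73% of loci above in males and 5.82% below and 6.95% above in females. Over both sexes together, where this held for 0.804% of loci below and 1.41% above, it held for none of the 9.

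The averaged log2 fold change of Carm1 was -0.27 (SE 0.09, interval -0.48 to -0.07), with an unadjusted p of 0.0151 and an adjusted p of 0.245, so it was not called. With the replicate number within each sex as a block it was called (limma, adjusted p = 0.033), where 5.38% of loci were called. That call was lost with any 1 same-numbered pair left out. In males alone, without the block, the log2 fold change was -0.42 (SE 0.13, unadjusted p = 0.010, adjusted p = 0.47), where 0.315% of loci were called and 6.38% had an unadjusted p under 0.05, and in females -0.13 (SE 0.13, adjusted p = 0.84), where 0.482% were called. The difference between these effects was 0.29 (female minus male, interval -0.12 to 0.70, adjusted p = 1). Without male vehicle library 3, the highest of the 12, the averaged value was -0.22 (adjusted p = 0.427) and the male value -0.31 (adjusted p = 0.917). The female value was -0.03 without female vehicle library 3 and -0.19 without female dexamethasone library 3, and the difference between the sexes was 0.18 without male vehicle library 3.

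Carm1 lies on chromosome 9 from 21546894 to 21592623 (GENCODE M21 on GRCm38, plus strand). Of its exon bases, 1025 (21.1%) are shared with Yipf2 on the opposite strand, and, although the library kit keeps strand, the strand setting of the authors' quantification was not given in the sources used here. The log2 fold change of Yipf2 was -0.09 (SE 0.05, adjusted p = 0.459), with 10.0 ± 0.693 FPKM in male dexamethasone and 10.9 ± 0.440 FPKM in male vehicle libraries (SD, n = 3). For the other 8 genes, exon bases shared with any annotated neighbour came to at most 1.95%, the value for Ncoa3 and Sulf2. These shares were computed on annotated genes. The loci quantified by the authors reach beyond the annotation for Ncoa3 (to 166155663 on chromosome 2, against an annotated end at 166073242) and Ncor1 (62281473 to 62514417 on chromosome 11, against 62316426 to 62458541), and for Carm1 to 21595970, so they may hold more of their neighbours.

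Med1 encodes the Mediator subunit that binds nuclear receptors directly. Male dexamethasone libraries had 35.6, 25.5 and 29.6 FPKM, against 31.96, 25.7 and 32.3 FPKM in male vehicle libraries. Female dexamethasone libraries had 25.7, 19.9 and 36.9 FPKM, against 28.1, 30.3 and 30.3 FPKM in female vehicle libraries. The female dexamethasone group held both the lowest and the highest of the 12 values. Its log2 fold change was -0.07 (SE 0.14, adjusted p = 0.862), and 0.03 without female dexamethasone library 2.

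Smarca4 supplies the ATPase that opens chromatin at receptor-bound sites. Male dexamethasone libraries had 47.1, 41.6 and 47.5 FPKM, against 44.5, 48.0 and 56.2 FPKM in male vehicle libraries. Female dexamethasone libraries had 38.3, 39.6 and 49.5 FPKM, against 37.0, 46.4 and 46.9 FPKM in female vehicle libraries. The groups overlapped in both sexes. Its interval was among the narrowest, from -0.29 to 0.14 around a log2 fold change of -0.08 (adjusted p = 0.757). Smarca4 starts 20199 bases beyond the end of the Carm1 locus as the file gives it.

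The corepressor Ncor1 had 78.6, 78.7 and 88.0 FPKM in male dexamethasone libraries, against 85.1, 85.0 and 106.3 FPKM in male vehicle libraries. In females it had 88.0, 72.7 and 100.4 FPKM with dexamethasone, against 84.1, 101.8 and 97.9 FPKM with vehicle. The groups overlapped, with a log2 fold change of -0.15 (SE 0.10, interval -0.36 to 0.07, adjusted p = 0.535). Expressed as a ratio, the interval ran from 0.779 to 1.05.

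Across the 9 genes, 1 library gave the most extreme values. Male vehicle library 3 held the highest value of 6 genes (Ncor1, Smarca4, Carm1, Crebbp, Ncoa3 and Ep300) and the lowest of Ncoa1. Its deviation from the mean of the gene was 0.75 for Crebbp, 0.50 for Ep300 and 0.46 for Carm1 on the log2(FPKM + 1) scale. Female dexamethasone library 2 held the lowest value of 4 genes, Ncor1, Med1, Carm1 and Ep300. The share of FPKM in unnamed loci was 75.0% in male vehicle library 3 and 27.9% in female dexamethasone library 2, and its part in these values was not tested.

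**Figure D3:**
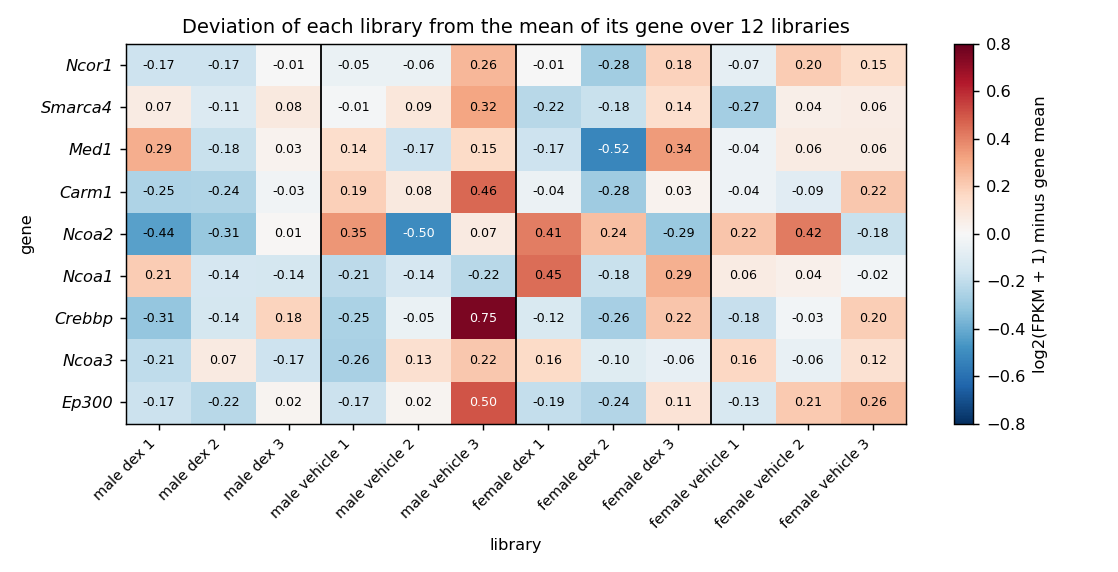
Log2(FPKM + 1) of each library (columns, grouped by sex and treatment) minus the mean of the gene over 12 libraries (rows), red above and blue below. Male vehicle library 3 reaches 0.75 for Crebbp and 0.50 for Ep300, and female dexamethasone library 2 reaches -0.52 for Med1.

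The sexes were compared in the same model. No coregulator was called for a difference in response between female and male cultures (limma interaction, adjusted p of 1 for all 9), where 0.0335% of tested loci were called and no coregulator had an unadjusted p under 0.05. Within males the adjusted p of the 9 ran from 0.47 to 1 and within females from 0.799 to 1. The intervals of the difference were wide, from -0.79 to 1.00. Between female and male cultures, averaged over the treatments, none of the 9 was called or had an unadjusted p under 0.05 (adjusted p from 0.658 to 0.997), and 0.107% of loci were called. The largest estimates were for Ncoa2, 0.27 higher in females (interval -0.14 to 0.68), and Ncoa1, 0.21 higher (interval -0.03 to 0.45).

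Partner genes of the coregulators were examined in 5 lists with 105 tested loci, and none was called in the averaged effect without a replicate term. Unadjusted p-values under 0.05 were found for 11 of the 105, against 13.6% of all tested loci. Of 20 further p160-related coactivators and coregulators, 1 had such a p, with a median log2 fold change of -0.01. Histone acetylation and methylation partners had 2 of 16 and a median of -0.11. Mediator subunits had 6 of 32 and a median of 0.01, and SWI/SNF subunits 1 of 23 and a median of -0.02. The median over all tested loci was -0.01.

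Corepressor partners had 1 of 14 and a median of -0.01. That gene was Tbl1x, which encodes a transducin-like subunit of the NCoR complex. Tbl1x averaged 27.1 ± 2.39 FPKM in male dexamethasone and 23.6 ± 1.52 FPKM in male vehicle libraries, and 27.5 ± 1.09 FPKM in female dexamethasone and 22.7 ± 0.559 FPKM in female vehicle libraries (SD, n = 3). Male dexamethasone libraries (24.4 to 28.9 FPKM) overlapped male vehicle libraries (22.1 to 25.2 FPKM). Female dexamethasone libraries were all above female vehicle libraries, as for 6.95% of tested loci. The log2 fold change was 0.23 (SE 0.06, adjusted p = 0.0993). For Hdac3, the deacetylase of that complex, it was 0.01 (interval -0.10 to 0.12), and for the related subunit gene Tbl1xr1 it was 0.00 (interval -0.12 to 0.13).

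Pbrm1, a subunit of the PBAF form of SWI/SNF, averaged 32.4 ± 4.75 FPKM in male dexamethasone and 38.5 ± 4.34 FPKM in male vehicle libraries, and 31.9 ± 3.27 FPKM in female dexamethasone and 35.0 ± 1.97 FPKM in female vehicle libraries. Its log2 fold change was -0.19 (SE 0.09, adjusted p = 0.372). Smarca2, the alternative SWI/SNF ATPase gene, was likewise not called, with an estimate of 0.13 (interval -0.19 to 0.45). Hdac3, Tbl1xr1 and Smarca2 were named for their roles after their values were seen.

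**Figure D4:**
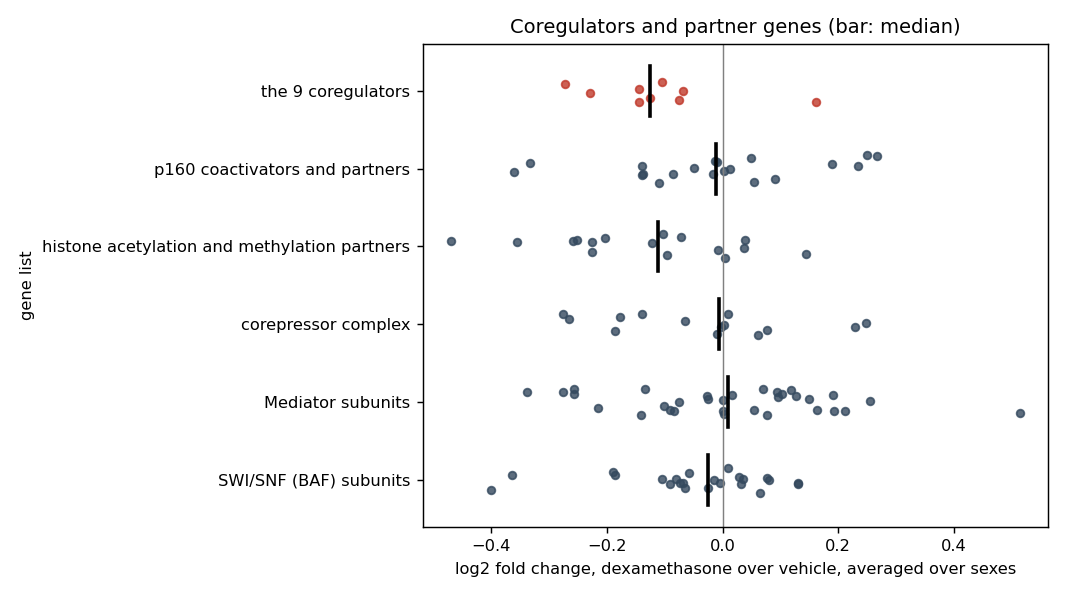
Log2 fold change of dexamethasone over vehicle, averaged over the sexes (x axis), for the 9 coregulators (red) and for tested loci of 5 partner lists (dark points), with the list median as a bar. The medians lie between -0.13 and 0.01, and no locus shown was called without a replicate term.

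The receptor itself was measured beside its coregulators. Nr3c1, the glucocorticoid receptor gene, had a log2 fold change of -0.20 (SE 0.09, interval -0.40 to 0.01, adjusted p = 0.375). Its levels, 15.6 to 20.3 FPKM over the group means, lay between those of Ncoa2 and Carm1. Group means of Nr3c2, which encodes the mineralocorticoid receptor, ran from 0.993 to 1.64 FPKM, with a log2 fold change at -0.35 (SE 0.20, adjusted p = 0.472). Each coregulator was thus above Nr3c2 in every group mean.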

How the data were processed

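RNA from neurosphere cultures was sequenced as 12 stranded total RNA libraries. The authors deposited 1 table of FPKM per locus and library. The submitters' processing notes name TopHat2 2.0.9, Cufflinks 2.2.1 and Cuffdiff 2.2.1 with build GRCm38. The annotation, the strand option and any scaling of libraries were not given in the sources used here. FPKM cannot be turned back into counts, so no count test, counting interval or depth is given.

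Here log2(FPKM + 1) was fitted with limma 3.58.1 (R 4.3.3, trend) to loci averaging 1 FPKM or more, as 4 group means without a replicate term. Effects were averaged over the sexes, within each sex, their difference, and female against male. P-values were two-sided and Benjamini-Hochberg adjusted over all 14931 tested loci. A locus was called at an adjusted p under 0.05. The fit was also run on simulated data, where any sharing within pairs was set in advance. That run cannot decide whether same-numbered libraries are paired. Named beside the 9 genes were loci of the 5 partner lists called with or without the replicate term, plus Nr3c1, Nr3c2, Fkbp5, Tsc22d3, Klf9 and Per1. Zbtb16, listed with the receptor and its response genes, was also called, at an averaged log2 fold change of 3.05. The 9 genes, lists and tests were chosen with earlier results of these data known. Alternatives covered the pseudocount, filter, scaling, robust variance, replicate term, single sexes and each library left out.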

Additional observations from a re-analysis of the deposited data

How the results depend on the processing

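None of the 9 coregulators was called under another pseudocount (0.1), filter, scaling or robust variance, or without any 1 library. With the replicate number within each sex as a block, 1 was called: Carm1 at -0.27 (adjusted p = 0.033), where 5.38% of loci were called. With the block and any 1 of the 6 same-numbered pairs left out, its adjusted p was 0.0677 to 0.114. Over all alternatives its averaged estimate was -0.31 to -0.20 and its adjusted p 0.033 to 0.6. Carm1 was lower with dexamethasone in 6 of 6 same-numbered pairs. With the block its male value was -0.42 (limma, adjusted p = 0.0602), not called. The difference between its effects in the sexes was then 0.29 (female minus male, interval 0.07 to 0.51, adjusted p = 0.9999), also not called. The block also called Pbrm1 at -0.19 (adjusted p = 0.0453) and Tbl1x at 0.23 (adjusted p = 0.024). Same-numbered libraries had correlated deviations of 0.082 to 0.167, over 0.1 in 4 of 6 pairs, and other pairs -0.147 to 0.034. Among the 3 libraries of its sex under the other treatment, each of the 12 correlated best with its own number. Each of the 6 pairs is counted from both sides here. Same-numbered libraries of 1 treatment in the 2 sexes had correlations of -0.013 to 0.043. Same-numbered libraries of a sex also carry adjacent sample letters, but the labels do not state a shared culture. The pairing is thus a hint and not a stated design, so the main model has no block. With the block the interval of Ep300 ran from -0.44 to -0.02 (limma, adjusted p = 0.174), not called.

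Directions turned for Crebbp without male vehicle library 3 (0.0059), for Med1 without female dexamethasone library 2 (0.0322), and without the 2 libraries rich in unnamed loci, an alternative chosen after seeing the data, for Crebbp (0.0189), Med1 (0.0147) and Smarca4 (8e-04). Leaving out 1 library gave -0.2451 to 0.0059 for Crebbp and -0.1832 to 0.0322 for Med1. With the block and 1 pair left out, also chosen after seeing the data, Ncoa2 lay above 0 without male pair 1 and Med1 without female pair 2, while Crebbp lay below 0 without any of the 6 pairs. The cause was not tested. Med31, a Mediator subunit gene, was called without female dexamethasone library 3 (0.31, adjusted p = 0.0484).

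The averaged effect called 229 loci, 804 with the block (420 higher, 384 lower), 146 to 215 without 1 library, 146 being without female dexamethasone library 1, and 114 without the 2 libraries. In males 47 were called, 148 with the block, 28 with no filter, 18 from male libraries alone, 28 to 49 without 1 library and 19 without the 2. In females 72 were called, 187 with the block, 33 from female libraries alone and 31 to 74 without 1 library. The interaction called 5 loci, 8 with the block, 11 with no filter, 4 to 14 without 1 library and 8 without the 2. Female against male called 16 loci, 15 to 28 without 1 library. FPKM leave depth unknown, which limits what the wide intervals of Ncoa2 and Crebbp can show.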

Other observations

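The chaperones that hold the unliganded glucocorticoid receptor ready for hormone were not called either. These genes were named for their role after their values were seen. Hsp90ab1, a cytosolic HSP90, averaged 1202 ± 66.4 FPKM in male dexamethasone and 1273 ± 24.4 FPKM in male vehicle libraries, and 1188 ± 108 FPKM in female dexamethasone and 1245 ± 50.5 FPKM in female vehicle libraries (SD, n = 3). Its averaged log2 fold change was -0.08 (interval -0.23 to 0.07, adjusted p = 0.654). For Ptges3, the p23 co-chaperone, it was -0.01 (interval -0.11 to 0.10, adjusted p = 0.971), and for Fkbp4, which encodes FKBP52, it was 0.01 (interval -0.14 to 0.15, adjusted p = 0.982). Hsp90aa1, another HSP90 gene, was not called either. It averaged 344 ± 16.7 FPKM in male dexamethasone and 376 ± 19.3 FPKM in male vehicle libraries. In females the means lay the other way, at 317 ± 9.86 FPKM with dexamethasone and 299 ± 28.3 FPKM with vehicle. Fkbp5, whose product FKBP51 competes with FKBP52 on the receptor complex, averaged 116 ± 35.7 FPKM in male dexamethasone and 23.1 ± 2.38 FPKM in male vehicle libraries, and 109 ± 12.7 FPKM in female dexamethasone and 17.4 ± 3.11 FPKM in female vehicle libraries.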
